A study of Mus musculus with 4 samples.

Results

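Class 3 semaphorins are secreted proteins that steer migrating cells and growing axons, and plexins are the membrane receptors through which they act. The 8 genes described here are the ligands Sema3a, Sema3b, Sema3c, Sema3d, Sema3e and Sema3f and the receptors Plxna1 and Plxnd1, out of 31054 genes in the count matrices. They were chosen by name after their levels over the cell classes of these same libraries had been seen, so each level by class is a description with no test. The cells came from the stromal vascular fraction of gonadal adipose tissue of male mice aged 18 months that carried p16-CreERT2 and R26-LSL-tdTomato, a reporter that is switched on by tamoxifen in cells in which the p16 promoter is active at that time. All the mice carried both alleles and all received tamoxifen, and the number of mice pooled in a library is not given in the sources used here. Cells were sorted on the pan-leukocyte protein CD45 and on tdTomato (Tom) into 4 gates, positive or negative for each of them and written CD45- Tom+ and so on, and each gate was 1 droplet library, so no gate had a replicate and no test of a condition was run.

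Most class 3 semaphorins bind a neuropilin, Nrp1 or Nrp2, which holds the ligand while a plexin passes the signal into the cell and loosens its attachment to the matrix. Sema3e is the known exception, since it binds Plxnd1 without a neuropilin. In adipose tissue these ligands and receptors are found on vessels, nerves, macrophages and the adipocyte progenitor cells (APCs) from which new fat cells form.

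The filters kept 3886 cells of the library labelled CD45- Tom+, 3674 of CD45- Tom-, 1927 of CD45+ Tom+ and 4391 of CD45+ Tom-, with median depths between 18331 and 19502 unique molecular identifiers (UMIs, counted molecules) per cell. tdTomato matched the Tom label, at 713 and 715 counts per 1000000 UMIs (CPM) in the Tom+ libraries and at 15.99 and 18.8 CPM in the Tom- libraries. Cdkn2a, which encodes p16, did not follow the Tom label in level when all cells of a library were pooled. It was at 6.81 and 7.29 CPM in the Tom+ libraries against 7.09 and 7.64 CPM in the Tom- libraries. Cdkn2a had a UMI in 8.78% and 8.87% of Tom+ cells against 6.40% and 5.85% of Tom- cells. Ptprc, which encodes CD45, did not match the CD45 label, at 217 and 158 CPM in the CD45- libraries against 223 and 188 CPM in the CD45+ libraries, so no direction is drawn from that label here. Cell barcodes recurred between libraries, from 26 in CD45- Tom+ and CD45+ Tom+ to 4394 in CD45- Tom- and CD45+ Tom-, of which 1 to 14 for each pair of libraries passed the filters in both. Levels in interstitial progenitor-like and lymphatic endothelial-like cells, where most of these genes were highest, are also given without these barcodes.

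Cells were clustered and classes were named from marker lists. A level is the UMIs of a gene summed over the cells of a class in 1 library, given as CPM of those cells, with an exact Poisson 95% interval that covers counting error only. Levels are given for classes of at least 50 cells in a library, which left 25 classes and 66 class-in-library values per gene, and a smaller class is named with its cell number. The APC-like cells fell into interstitial progenitor-like cells (Dpp4, Pi16), committed preadipocyte-like cells, inflammatory progenitor-like cells and other APC-like cells. The interstitial subset was small, at 70 and 79 cells in the Tom- libraries and 11 and 3 cells in the Tom+ libraries. Lymphatic endothelial-like cells (Prox1, Mmrn1, Flt4) took 4.58% of the CD45- Tom+ library (exact binomial 95% interval, 3.95 to 5.29) and 4.41% of CD45+ Tom+ (3.54 to 5.43). There was 1 such cell in CD45- Tom- and 0 of 4391 cells in CD45+ Tom-, where the exact binomial interval reaches up to 0.084%. The tdTomato gate can set such shares, and levels in the lymphatic class therefore come from the Tom+ libraries alone.

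Of the ligand genes, Sema3d, Sema3a, Sema3e and Sema3c lie in this order along chromosome 5, all on the plus strand (GRCm38, GENCODE vM21). Sema3d is at chr5:12383385-12588948, Sema3a at chr5:13125414-13602565, Sema3e at chr5:14025276-14256689 and Sema3c at chr5:17574281-17730268, and the 4 genes together span 5347 kb. Sema3b (chr9:107597674-107609229) and Sema3f (chr9:107681500-107710475) lie 72.3 kb apart on the minus strand of chromosome 9. The receptor genes are both on the minus strand of chromosome 6, Plxna1 at chr6:89316314-89362620 and Plxnd1 at chr6:115954811-115995005. Neighbours on a chromosome did not share their highest class in every case, since Sema3d and Sema3a were highest in lymphatic endothelial-like cells and Sema3e and Sema3c in interstitial progenitor-like cells.

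The 250 bases before the start of the 4 genes of chromosome 5 are shown because these neighbours divided between those cell classes. They are RefSeq sequences of GRCm38.p6, read 5′ to 3′ on the plus strand, and 5 of the 8 genes had an entry. Capitals mark matches on either strand to the ETS core CCGGAA, the SP box GGGCGG or the TEAD motif CATTCC. The windows are chr5:12382916-12383165 for Sema3d, chr5:13396534-13396783 for Sema3a, chr5:14025026-14025275 for Sema3e and chr5:17574566-17574815 for Sema3c. Those of Sema3a and Sema3c lie within the longer gene spans given for these genes.
Sema3d: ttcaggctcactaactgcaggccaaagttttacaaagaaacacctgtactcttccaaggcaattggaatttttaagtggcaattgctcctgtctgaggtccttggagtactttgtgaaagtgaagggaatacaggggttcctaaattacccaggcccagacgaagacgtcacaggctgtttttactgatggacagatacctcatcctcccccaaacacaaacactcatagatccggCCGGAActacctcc
Sema3a: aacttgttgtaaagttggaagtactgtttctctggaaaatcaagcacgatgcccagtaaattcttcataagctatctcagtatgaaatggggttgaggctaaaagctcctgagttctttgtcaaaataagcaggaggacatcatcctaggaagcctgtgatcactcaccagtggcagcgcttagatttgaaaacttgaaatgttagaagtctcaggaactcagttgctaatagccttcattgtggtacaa
Sema3e: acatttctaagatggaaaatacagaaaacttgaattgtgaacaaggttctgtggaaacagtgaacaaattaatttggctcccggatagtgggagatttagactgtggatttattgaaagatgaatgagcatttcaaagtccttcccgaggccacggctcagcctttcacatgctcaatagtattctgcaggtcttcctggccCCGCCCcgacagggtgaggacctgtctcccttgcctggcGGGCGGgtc
Sema3c: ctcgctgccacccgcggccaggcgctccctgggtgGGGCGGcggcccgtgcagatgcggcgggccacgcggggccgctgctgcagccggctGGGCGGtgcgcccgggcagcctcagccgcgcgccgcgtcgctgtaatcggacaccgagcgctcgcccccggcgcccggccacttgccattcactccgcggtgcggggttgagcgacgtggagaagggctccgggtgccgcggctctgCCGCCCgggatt
The Sema3c window stood apart in base composition, with 78.4% G and C, 39 CG pairs and 3 SP boxes, and its GC content was above that of 98.1% of 32851 promoter windows of this length. Sema3e had 2 SP boxes and 48% GC, Sema3d had 1 ETS core 14 bases before the start and 46.8% GC, and Sema3a had 40.8% GC and no match. The SP box was found in 32.7% of all promoter windows, the ETS core in 12.0% and the TEAD motif in 12.6%. Further motifs, searched on both strands, had no match in these 4. The SOX motif AACAAT is in 9.42% of all windows. The FOX motif GTAAACA is in 3.17%. The TATA box, searched as TATAAA, is in 12.4%. The AP-1 motif TGACTCA is in 4.46%. A match is a description of letters and not of a bound site.

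Sema3c, a ligand known for its part in heart outflow tract and vessel development, was concentrated in interstitial progenitor-like and mesothelial-like cells. In interstitial progenitor-like cells Sema3c was at 1360.5 CPM (1307 to 1415) in CD45- Tom- and 1341 CPM (1292 to 1391) in CD45+ Tom-. The gene had a UMI in 100% and 98.7% of these cells, with a median of 28.5 and 30 UMIs a cell and a range from 3 to 148 and from 0 to 174. Thus in the Tom- libraries nearly every interstitial progenitor-like cell held Sema3c, although the amount varied widely from cell to cell. The 11 interstitial cells of CD45- Tom+ were at 753 CPM (653 to 864) and the 3 of CD45+ Tom+ at 699 CPM (565 to 856), below the Tom- libraries but on very few cells. Mesothelial-like cells, which line the tissue surface, followed at 344, 367 and 341 CPM in CD45- Tom+, CD45- Tom- and CD45+ Tom-, and the 34 such cells of CD45+ Tom+ were at 383 CPM. The mean in interstitial cells was 3.85 times that in mesothelial-like cells and the ranges over libraries did not overlap. The remaining classes were far lower, with inflammatory progenitor-like cells at 42.1 and 43.9 CPM, other APC-like cells at 17.6 to 24.2 CPM and committed preadipocyte-like cells at 3.35 to 6.54 CPM. Mesothelial-like cells held 49.3% to 54.7% of all Sema3c UMIs of the kept cells in the 3 libraries where they reached 50 cells, and interstitial progenitor-like cells held 32.6% and 35.8% in the Tom- libraries. Lymphatic endothelial-like cells held 1 Sema3c UMI in CD45- Tom+ and 0 in CD45+ Tom+. When every barcode found in more than 1 library was left out, the interstitial class kept 23 and 43 cells in the Tom- libraries, where Sema3c was at 2519 and 1327 CPM. In those cells Sema3b was at 55.7 and 52.0 CPM, Plxna1 at 76.9 and 87.8 CPM and Plxnd1 at 2.65 and 12.7 CPM. At a clustering resolution of 2 in place of 1 that class held other cells, and its Sema3c level became 593 and 610 CPM.

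Sema3e was highest in the interstitial subset and absent or near 0 in most other classes. It was at 50.5 CPM (40.6 to 61.9) in CD45- Tom- and 35.7 CPM (28.1 to 44.7) in CD45+ Tom-, with a UMI in 42.9% and 38.0% of cells. These cells were 1.91% and 1.80% of their libraries and held 61.9% and 58.9% of all Sema3e UMIs there. Without barcodes found in several libraries Sema3e was at 92.8 and 42.7 CPM in the 23 and 43 cells left, and at a clustering resolution of 2 it was at 21.4 and 16.1 CPM. Mast-like cells came next, at 8.81 and 5.07 CPM in the Tom+ libraries, and 43 of the 66 class values were 0. Depth limits this gene, with 37 to 147 UMIs in the kept cells of a library. In the 178 and 85 lymphatic endothelial-like cells there was no Sema3e UMI, which allows up to 0.873 and 1.96 CPM at 3 counts.

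Sema3b was spread over the APC-like subsets. It was at 46.6 CPM (37.1 to 57.7) and 41.3 CPM (33.1 to 50.9) in interstitial progenitor-like cells of the Tom- libraries. Other APC-like cells were at 30.4, 36.5, 32.2 and 34.3 CPM in CD45- Tom+, CD45- Tom-, CD45+ Tom+ and, last, CD45+ Tom-, and inflammatory progenitor-like cells at 31.5 and 32.8 CPM. The interstitial intervals reached down to these values in part, so the order at the top rests on few counts. Committed preadipocyte-like cells were lower, at 13.8 to 15.9 CPM, and mesothelial-like cells were at 13.7 to 15.2 CPM. In resident macrophage-like cells 0, 0 and 1 Sema3b UMIs were found in the 3 libraries with 50 cells of that class.

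Sema3a, the founding axon repellent of the class, was highest in lymphatic endothelial-like cells. It was at 166 CPM (152 to 180) in CD45- Tom+ and 157 CPM (138 to 178) in CD45+ Tom+, with a UMI in 144 of 178 and 66 of 85 cells. The mean was 3.46 times that of the next class and the ranges did not overlap. The next class was cluster 7, an unnamed group led by Cxcl13, Saa3 and Cxcl5 that carried 7 of 7 APC and 8 of 8 mesothelial markers, where Sema3a was at 36.2, 59.6, 47.7 and 42.8 CPM in CD45- Tom+, CD45- Tom-, CD45+ Tom+ and, last, CD45+ Tom-. Mesothelial-like cells were at 28.5 to 40.5 CPM. The other endothelium did not share the level, since vascular endothelial-like cells were at 1.004 to 5.22 CPM, and committed preadipocyte-like cells were at 4.15 to 5.05 CPM.

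Sema3d was high in the same lymphatic cells and again in part of the progenitors. In lymphatic endothelial-like cells it was at 269 CPM (252 to 287) and 233 CPM (209 to 258), with a UMI in 91.0% and 87.1% of cells, and these cells held 78.1% and 67.6% of all Sema3d UMIs of their libraries. In the Tom- libraries interstitial progenitor-like cells were at 86.5 and 87.3 CPM (151 and 91.3 CPM without barcodes found in several libraries) and inflammatory progenitor-like cells at 36.2 and 50.2 CPM. Other APC-like cells were lower, at 22.97 to 32.2 CPM, and committed preadipocyte-like cells were lowest among the progenitors, at 1.26 to 2.74 CPM. The 11 interstitial cells of CD45- Tom+ held a single Sema3d UMI (3.71 CPM), while the 3 of CD45+ Tom+ were at 81.8 CPM.

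Sema3f, a ligand that prefers Nrp2 and is known to repel endothelial cells, was found in both endothelial classes and in mesothelium. Lymphatic endothelial-like cells were at 169 CPM (156 to 184) and 150 CPM (131 to 171). Vascular endothelial-like cells were at 69.2, 90.3, 77.2 and 107 CPM in CD45- Tom+, CD45- Tom-, CD45+ Tom+ and, last, CD45+ Tom-. The Tom+ libraries lay below the Tom- libraries, also in cluster 14, the larger of the 2 clusters of this class, at 77.4, 90.3, 81.3 and 109 CPM in the same order. The intervals overlapped there, from 62.1 to 95.3, 72.6 to 111, 61.7 to 105 and 91.7 to 128 CPM, and mural markers and depth, given with Plxnd1, differed between these libraries. Mesothelial-like cells were at 63.6, 70.5 and 67.3 CPM in the 3 libraries with 50 of them, which overlapped the vascular range. APC-like cells held little, with 0 to 1 UMI in the interstitial subset. In the Tom- libraries mesothelial-like cells carried 60.8% and 56.1% of all Sema3f UMIs. In the 165 and 82 lymphatic cells whose barcode was in no other library, Sema3f was at 177 and 146 CPM, Sema3a at 173 and 158 CPM and Sema3d at 270.3 and 233 CPM.

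**Figure D1:**
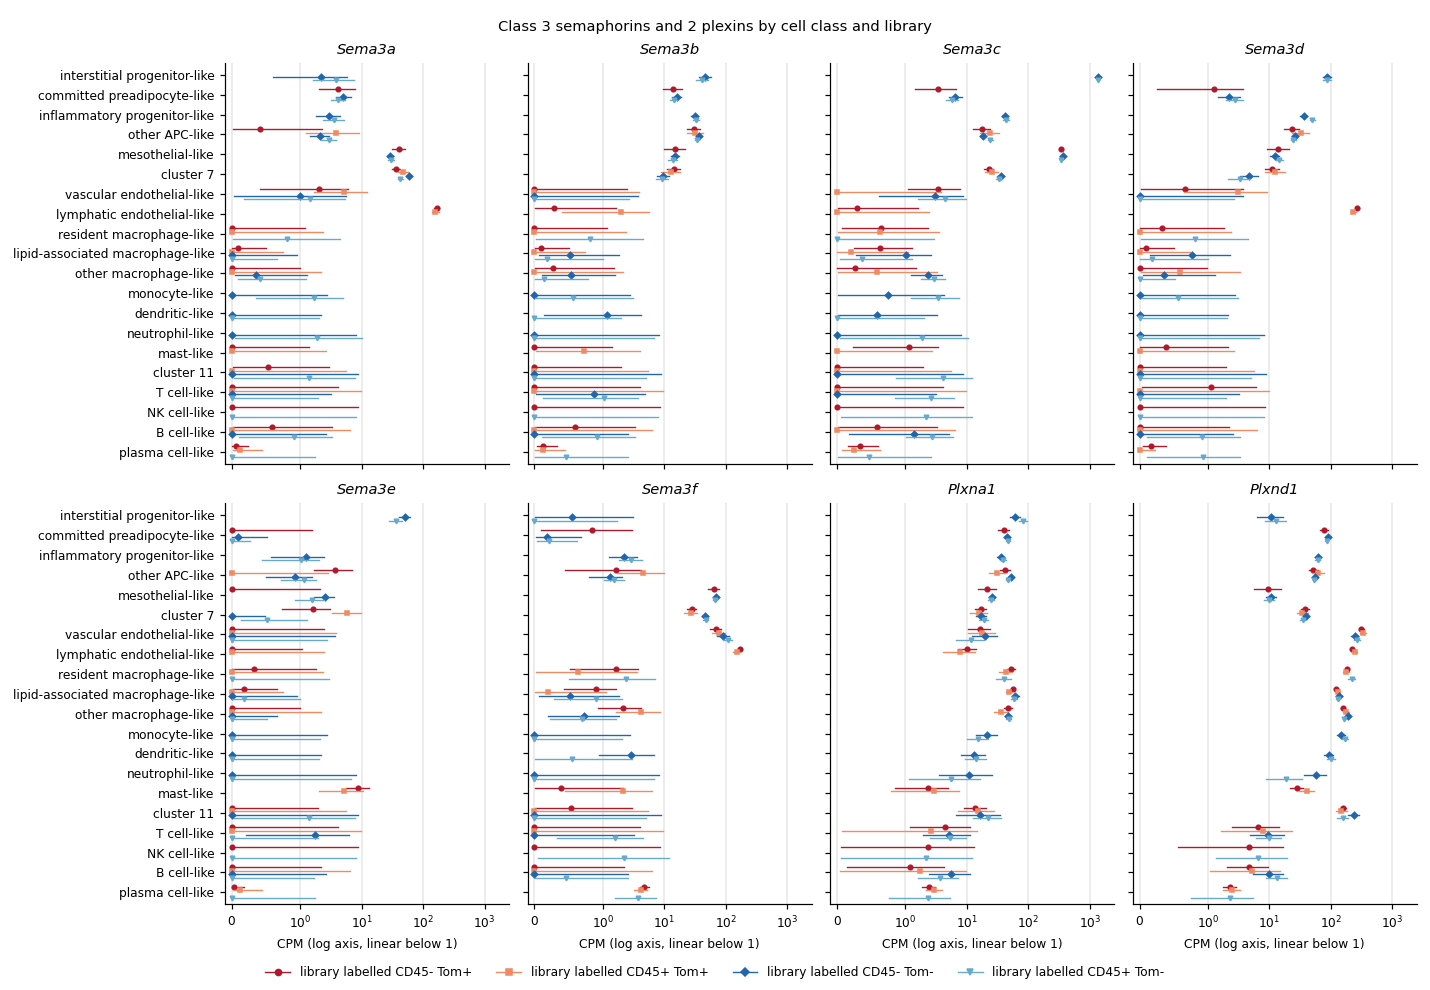
Level of each of the 8 genes (CPM, log axis, linear below 1) in 20 cell classes, with 1 point for each library in which the class had at least 50 cells and bars for the exact Poisson 95% interval. Sema3a, Sema3d and Sema3f peak in lymphatic endothelial-like cells, Sema3c, Sema3e and Sema3b in interstitial progenitor-like cells, and no Plxna1 or Plxnd1 value is 0.

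The ligands were thus spread unevenly, with few classes above background. Of the 66 class values per gene, 8 to 14 reached 20 CPM for Sema3a, Sema3b, Sema3c, Sema3d and Sema3f, and 2 did for Sema3e, while 47 to 61 were under 5 CPM. B cell-like cells, a class not known for these ligands, were taken as the background and were at 0 to 2.75 CPM and at most 2% of cells with a UMI, although they were shallower (median 5296 to 6510 UMIs) than interstitial progenitor-like cells (26405 and 27240 in the Tom- libraries). After every cell was thinned to 2000 UMIs, Sema3c still had a UMI in 82.9% and 76.0% of interstitial progenitor-like cells, Sema3d in 41.0% and 43.5% of lymphatic endothelial-like cells and Sema3a in 22.5% and 21.2% of the latter.

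Single cells carried several ligands at once. Sema3a, Sema3d and Sema3f were all found in 64.0% and 58.8% of lymphatic endothelial-like cells, in 9.45% to 10.7% of mesothelial-like cells and in 0% of interstitial progenitor-like cells of the Tom- libraries. The mean number of these 6 ligands with a UMI was 2.87 and 2.89 per interstitial cell and 2.52 and 2.45 per lymphatic cell. Mesothelial-like cells were as high, at 2.78, 2.87 and 2.79 in CD45- Tom+, CD45- Tom- and CD45+ Tom-. Cluster 7, an unnamed group, was at 1.69 to 2.04 and committed preadipocyte-like cells at 0.377 to 0.519. Depth was not matched, with a median of 15688 UMIs in lymphatic cells of CD45+ Tom+ and 30809 in mesothelial-like cells of CD45+ Tom-. Over the 66 class values, which share libraries and depth, the Pearson correlation of log2(CPM + 1) was 0.83 for Sema3b with Sema3c. It was 0.73 for Sema3a with Sema3f, 0.72 for Sema3a with Sema3d and 0.62 for Sema3c with Sema3e. Pairs with different highest classes also reached such values, at 0.76 for Sema3b with Sema3d and 0.66 for Sema3c with Sema3d. The ligands therefore did not fall into separate sets by this measure.

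**Figure D2:**
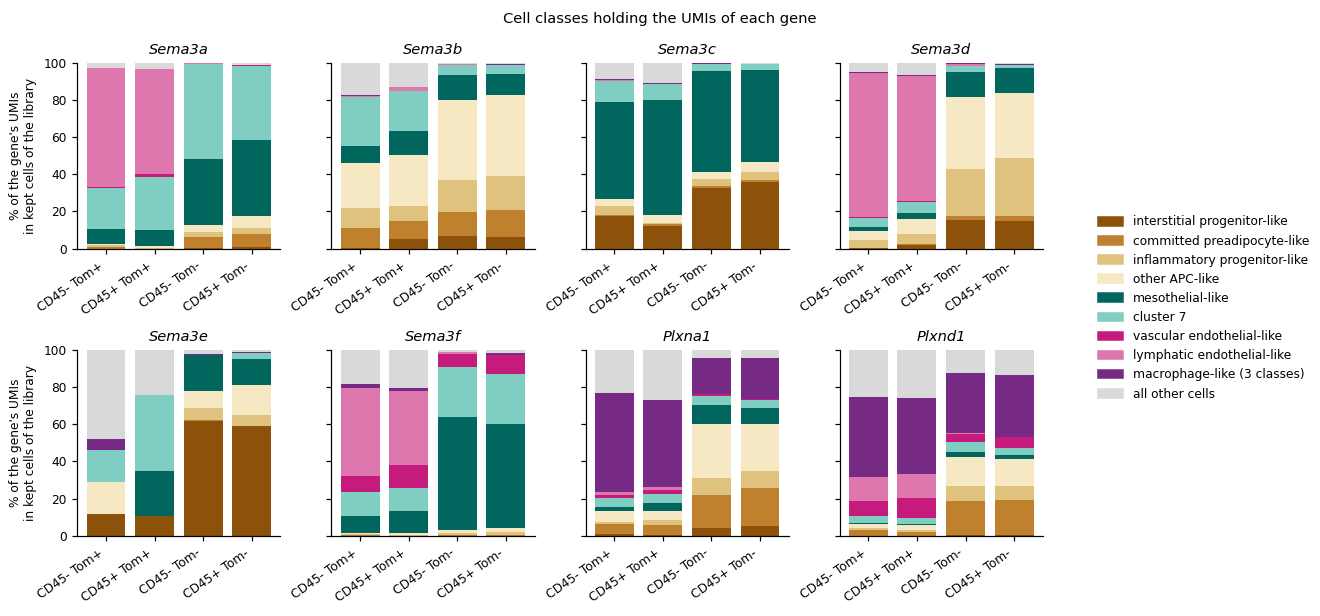
Share of each gene's UMIs in the kept cells of a library (%) that came from each cell class, as stacked bars with 1 bar per library. Lymphatic endothelial-like cells hold 63.9% and 56.7% of Sema3a and 78.1% and 67.6% of Sema3d in the Tom+ libraries, and mesothelial-like cells hold 49.3% to 54.7% of Sema3c in 3 libraries.

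Plxnd1, the receptor of Sema3e and a regulator of vessel growth, was widespread. It was highest in the vascular endothelial-like class, at 312, 245, 336 and 265 CPM in CD45- Tom+, CD45- Tom-, CD45+ Tom+ and, last, CD45+ Tom-. The Tom+ libraries lay above the Tom- libraries, but the class merged 2 clusters that the libraries filled unequally. Cluster 27, led by Vwf, Aqp1 and Ptprb with Plvap and Selp, held 15 of 95, 0 of 110, 12 of 54 and 2 of 142 of these cells in the same order, and in it Plxnd1 was at 738 CPM in CD45- Tom+ and 648 CPM in CD45+ Tom+. In cluster 14 alone, which held the rest, Plxnd1 was at 181 CPM (157 to 208), 245 CPM (215 to 278), 228 CPM (195 to 266) and 245 CPM (219 to 273), so the Tom+ libraries were then the lower ones and the vascular class no longer exceeded the lymphatic class. In the whole class, mural cell markers summed to 1166, 646, 842 and 296 CPM in the same order, with 7 of 7 detected, and the median depth was 13229, 7105, 16757 and 8302 UMIs, and the part of either in the Plxnd1 values was not tested. Lymphatic endothelial-like cells followed at 219 and 244 CPM. Among myeloid cells Plxnd1 was at 185, 175 and 219 CPM in resident macrophage-like cells of CD45- Tom+, CD45+ Tom+ and CD45+ Tom-, at 157 to 190 CPM in other macrophage-like cells (led by Arg1 and Cd5l), at 123 to 137 CPM in lipid-associated macrophage-like cells (LAM-like, Trem2 and Gpnmb) and at 92.6 and 100.1 CPM in dendritic-like cells. Monocyte-like cells were at 148 and 168 CPM, within the range of the macrophages. Cluster 11, an unnamed group led by Trdc, Trdv4 and Cd163l1, also overlapped the macrophages, at 149 to 237 CPM. Within the progenitors the lowest subset was the one with the highest Sema3c, Sema3d and Sema3e, with committed preadipocyte-like cells at 77.0, 90.6 and 86.1 CPM, inflammatory progenitor-like cells at 62.1 and 61.1 CPM and interstitial progenitor-like cells at 10.5 and 12.7 CPM. Mesothelial-like cells were as low, at 9.56 to 10.6 CPM, and plasma cell-like cells lower, at 2.27 to 2.47 CPM.

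The 250 bases before the Plxnd1 start (chr6:115995006-115995255, minus strand, RefSeq, GRCm38.p6) are shown beside those of the ligands because Plxnd1 was lowest in the progenitor subset in which Sema3c and Sema3e were highest. Capitals mark 1 TEAD motif and 1 SP box, 173 and 23 bases before the start.
Plxnd1: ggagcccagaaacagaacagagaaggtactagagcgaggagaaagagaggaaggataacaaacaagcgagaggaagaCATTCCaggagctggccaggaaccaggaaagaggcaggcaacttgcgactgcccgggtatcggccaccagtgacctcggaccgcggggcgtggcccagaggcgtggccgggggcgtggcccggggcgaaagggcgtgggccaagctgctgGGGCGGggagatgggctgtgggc
With 64.8% GC and 16 CG pairs the window lay between those of Sema3c and Sema3e.

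Plxna1, a plexin that pairs with neuropilins for several of these ligands, was also widespread. It was at 61.0 CPM (50.1 to 73.5) and 82.2 CPM (70.4 to 95.3) in interstitial progenitor-like cells and at 56.9, 61.4, 49.3 and 58.6 CPM in LAM-like cells of CD45- Tom+, CD45- Tom-, CD45+ Tom+ and, last, CD45+ Tom-. The ranges of these classes overlapped, so which is highest cannot be stated. Committed preadipocyte-like cells were at 40.2 to 46.7 CPM, other APC-like cells at 31.4 to 51.5 CPM, resident macrophage-like cells at 40.4 to 52.3 CPM and mesothelial-like cells at 21.4 to 25.4 CPM. Both endothelial classes were low, at 11.7 to 20.1 CPM in vascular and 10.2 and 7.84 CPM in lymphatic cells. Plxna1 reached 20 CPM in 29 and Plxnd1 in 46 of the 66 class values, against at most 14 for any ligand.

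The co-receptors divided the endothelium. Nrp1 was at 501, 570, 517 and 613 CPM in vascular endothelial-like cells of CD45- Tom+, CD45- Tom-, CD45+ Tom+ and, last, CD45+ Tom- and at 1.45 and 3.27 CPM in lymphatic cells. Nrp2, known for its part in lymphatic growth, was at 649 and 619 CPM in lymphatic cells and 307 to 459 CPM in vascular cells. Mesothelial-like cells, which held 49.3% to 54.7% of the Sema3c UMIs, had little of either, at 4.50 to 7.04 CPM of Nrp1 and 11.7 to 23.1 CPM of Nrp2. Plxnd1 together with a neuropilin was found in 85.2% to 90.7% of LAM-like cells, 64.5% to 87.0% of vascular endothelial-like cells and 65.7% and 68.2% of lymphatic cells, against 7.47% to 10.3% of mesothelial-like cells and 21.4% and 26.6% of interstitial progenitor-like cells. Mesothelial-like cells instead had the highest level of Plxna4, another partner of the neuropilins, at 335 to 345 CPM.

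Of the other 36 genes of the pathway, 10 of 14 ligands, 6 of 11 receptors and co-receptors and 10 of 11 mediators reached 50 CPM in some class. Sema3g, the remaining class 3 ligand, was nearly confined to vascular endothelial-like cells, at 155, 306, 106 and 269 CPM in CD45- Tom+, CD45- Tom-, CD45+ Tom+ and, last, CD45+ Tom-, and its mean was 76.4 times that of the next class. The Tom+ libraries were the lower ones, also in cluster 14 alone, at 203, 306, 135 and 276 CPM in the same order, while cluster 27, with 15 and 12 cells in the Tom+ libraries against 0 and 2 in the Tom- libraries, held 0 and 6 Sema3g UMIs in the Tom+ libraries. Mural markers in cluster 14 summed to 1521, 646, 1016 and 304 CPM and its median depth was 12007, 7105, 14865 and 8250 UMIs, and their part was not tested. Plxna2 was at 109.5 to 174 CPM in vascular and 100.1 and 90.2 CPM in lymphatic cells, and Plxnb2 at 230.1 to 256 CPM in resident macrophage-like cells.

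**Figure D3:**
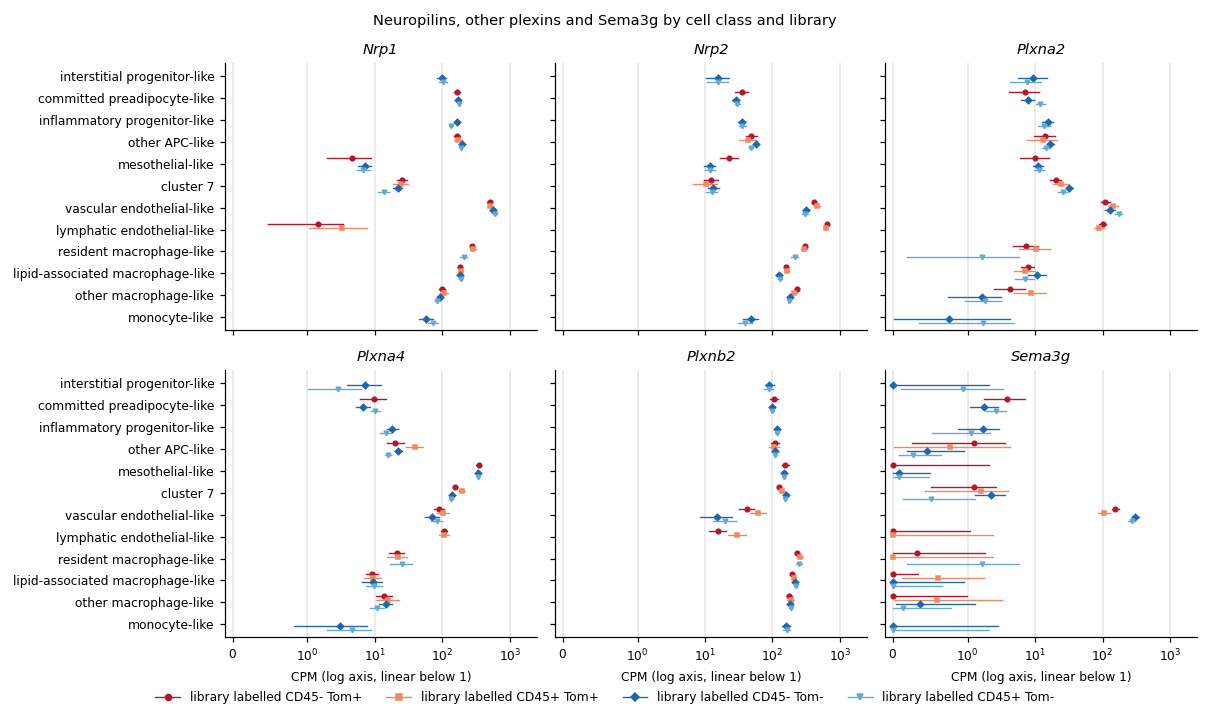
Level (CPM, log axis, linear below 1) of the co-receptors Nrp1 and Nrp2, the plexins Plxna2, Plxna4 and Plxnb2 and the ligand Sema3g in 12 cell classes, with 1 point per library and exact Poisson 95% intervals. Nrp1 and Sema3g are high in vascular endothelial-like cells, Nrp2 in lymphatic cells (649 and 619 CPM) and Plxna4 in mesothelial-like cells.

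The genes outside the pathway whose log2(CPM + 1) over the 66 class values was most like that of a member were Tnfrsf11b (Pearson r = 0.95), Rcan2 and Adgrd1 for Sema3c and Thbs3 (0.96), Larp6 (0.96) and Gabra3 (0.96) for Sema3b. They were Nrxn2 (0.92), Ttc9 (0.92) and Reep1 (0.90) for Sema3a, Vldlr (0.89), Pcsk6 and Adamtsl1 for Sema3d and Ephb1 (0.91), Podxl and Stap2 for Sema3f. For Sema3e they were Adamts16 (0.82), Dact2 and Krtdap. The receptors were most like broadly expressed genes, Anxa5 (0.91), Itgb5 and Ncstn for Plxna1 and Dctn1 (0.80), Cdkn1a (0.79) and Frmd4a (0.79) for Plxnd1, the last set being the least close with that of Sema3e.

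The Tom+ and Tom- libraries were not separated by pooled Cdkn2a level. That level mixes cell classes, and no Cdkn2a level within a class is given here. Plasma cell-like cells, for example, were 21.1% and 22.1% of the Tom+ libraries against 1.03% and 1.30% of the Tom- libraries. The paper reports higher p16 mRNA by quantitative PCR in Tom+ than in Tom- APCs sorted from old mice. The sort asked whether cells with an active p16 promoter differ from the others. For the 8 genes this was set out within classes of at least 100 cells in both libraries of a pair, as the log2 ratio of Tom+ to Tom- with a conditional exact 95% interval, and a gene was called when it differed by 2-fold or more among genes at a mean of at least 5 CPM. There were 12 such comparisons and 37 ratios of the 8 genes, of which 2 were called. In APC-like cells 1.53% of all genes were called in the CD45- pair and 1.64% in the CD45+ pair, and 0 of the 5 members tested in each. The median log2 ratio of these 5 was -0.37 in the CD45- pair and -0.02 in the CD45+ pair, against -0.03 and -0.04 over all genes. The share of all genes called was 2.27% in other APC-like and 2.66% in committed preadipocyte-like cells of the CD45- pair, with 0 of 5 and 0 of 3 members called.

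Sema3c was lower in the Tom+ libraries over all APC-like cells. It was at 50.9 CPM in CD45- Tom+ against 89.0 CPM in CD45- Tom-, a log2 ratio of -0.81 (-0.98 to -0.64), and at 50.3 against 88.0 CPM in the CD45+ pair, -0.81 (-1.06 to -0.56). The top 10% of APC-like cells held 86.9% to 92.7% of these UMIs, and interstitial markers summed to 826 and 734 CPM in the APC-like cells of the Tom+ libraries and to 1089 and 1082 CPM in those of the Tom- libraries. Mesothelial markers in APC-like cells, led by Wt1, were also lower in Tom+, at 168 against 187 CPM and 182 against 186 CPM. Plasma cell markers in APC-like cells moved the other way. They were at 2223 and 2860 CPM in the Tom+ libraries against 390 and 372 CPM in the Tom- libraries, all 7 detected in each. Macrophage markers in other APC-like cells summed to 301 against 78.8 CPM in the CD45- pair and 97.3 against 72.9 CPM in the CD45+ pair, and in committed preadipocyte-like cells of the CD45- pair to 213 against 77.6 CPM, with 8 of 8 detected, and the part of these in the ratios was not tested. With the Tom- mix of subsets applied to both libraries the ratios were -0.57 and -0.78, and in other APC-like cells alone the CD45- pair gave -0.05 (-0.55 to 0.42). Across all alternatives the ratio ran from -1.08 to -0.57 in the CD45- pair and from -1.56 to -0.74 in the CD45+ pair. Sema3b, at -0.37 (-0.64 to -0.11) and 0.03 (-0.32 to 0.37), and Sema3d, at -0.37 (-0.67 to -0.08) and 0.28 (-0.06 to 0.60), were below 0 in the CD45- pair with intervals that included 0 in the CD45+ pair. Plxna1 was at -0.23 (-0.43 to -0.03) and -0.24 (-0.53 to 0.04) and Plxnd1 at -0.07 (-0.23 to 0.09) and -0.02 (-0.26 to 0.20). Sema3f was under 5 CPM, at 2.98 against 1.12 and 2.94 against 1.28 CPM. Lymphatic markers in APC-like cells summed to 20.5 against 6.46 and 20.2 against 6.90 CPM with 8 of 8 detected. Vascular markers there summed to 28.9 against 22.2 and 37.5 against 18.6 CPM, while mesothelial markers were lower in Tom+, as given above. The part of these 3 lists in Sema3f was not tested.

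In cluster 7 of the CD45- pair, where 1.63% of genes were called, 1 of 7 members was, and 4 others had intervals that left out 0 while under 2-fold. Sema3d was at 11.0 against 4.72 CPM, a log2 ratio of 1.22 (0.60 to 1.85) on 61 and 36 UMIs. This call rests on the cell filter and on shared barcodes, since the ratio was -0.15 when cells with 500 or more genes and a mitochondrial share below 20% were kept and 0.42 without barcodes found in several libraries. Sema3a was lower in Tom+, at 36.2 against 59.6 CPM (-0.72, -0.97 to -0.48), Sema3c at 22.7 against 35.5 CPM (-0.65, -0.96 to -0.34) and Sema3f at 28.1 against 46.5 CPM (-0.73, -1.01 to -0.45). Sema3b was higher in Tom+, at 14.2 against 9.70 CPM (0.55, 0.08 to 1.03). Across all alternatives the ratio ran from -1.01 to -0.02 for Sema3a and from -0.89 to -0.24 for Sema3c. It ran from -1.07 to -0.48 for Sema3f and from 0.03 to 1.15 for Sema3b. In the CD45+ pair, which had 74 Tom+ cells and so no ratio, Sema3f was at 27.4 against 47.3 CPM, Sema3c at 25.4 against 33.5 CPM, Sema3d at 12.5 against 3.30 CPM and Sema3a at 47.7 against 42.8 CPM. Sema3f, Sema3c and Sema3d therefore lay in the same order in both pairs and Sema3a did not. Plasma cell markers in cluster 7 summed to 1491 CPM in CD45- Tom+ and 343 CPM in CD45- Tom-, and mesothelial markers to 1123 and 1224 CPM, and their part was not tested.

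In macrophage-like cells 2.25% of genes were called in the CD45- pair and 2.69% in the CD45+ pair, and neither Plxna1 nor Plxnd1 was. Nor were they within LAM-like cells, where 1.49% and 2.03% of genes were called in the CD45- and CD45+ pairs, or in other macrophage-like cells of the CD45- pair (2.11%), and 0 of 1 member was called in T cell-like cells (10.6%). Plxnd1 was at 141 against 172 CPM in the CD45- pair, -0.28 (-0.37 to -0.19), and at 148 against 156 CPM in the CD45+ pair, -0.08 (-0.18 to 0.02). Plxna1 was at 0.03 (-0.12 to 0.19) and -0.18 (-0.37 to 0.00). The mix of subsets differed, since LAM-like cells were 387 and resident cells 171 of 730 macrophage-like cells in CD45- Tom+ against 162 and 42 of 518 in CD45- Tom-. Within LAM-like cells Plxnd1 was at -0.15 (-0.30 to -0.01) and 0.01 (-0.14 to 0.17) in the CD45- and CD45+ pairs, and within other macrophage-like cells of the CD45- pair at -0.27 (-0.42 to -0.12). In the macrophage-like cells plasma cell markers summed to 2056 against 403 CPM and 1886 against 368 CPM, and APC markers to 99.7 against 361 CPM and 90.0 against 414 CPM, with 7 of 7 detected for each, and their part was not tested. Of the pathway genes tested there, 1 of 20 was called in the CD45- pair and 2 of 19 in the CD45+ pair. Sema6d, a transmembrane semaphorin, was called higher in Tom+ in both pairs, at 1.30 and 1.35, and Plxna2 in the CD45+ pair alone, at 1.06. In the CD45- pair 1 of 26 pathway genes was also called in committed preadipocyte-like cells and 2 of 17 in T cell-like cells. There 2.66% and 10.6% of all genes were called. Within LAM-like cells 0 of 21 and 0 of 19 pathway genes were called in the CD45- and CD45+ pairs, and Sema6d was at 0.09 (-0.43 to 0.64) and 0.39 (-0.15 to 0.95), while in other macrophage-like cells of the CD45- pair 0 of 18 were called. The other call among the 8 genes was Plxnd1 in B cell-like cells of the CD45- pair, where 8.06% of genes were called, at 4.74 against 9.86 CPM on 8 and 14 UMIs, with an interval of the log2 ratio from -2.52 to 0.30.

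**Figure D4:**
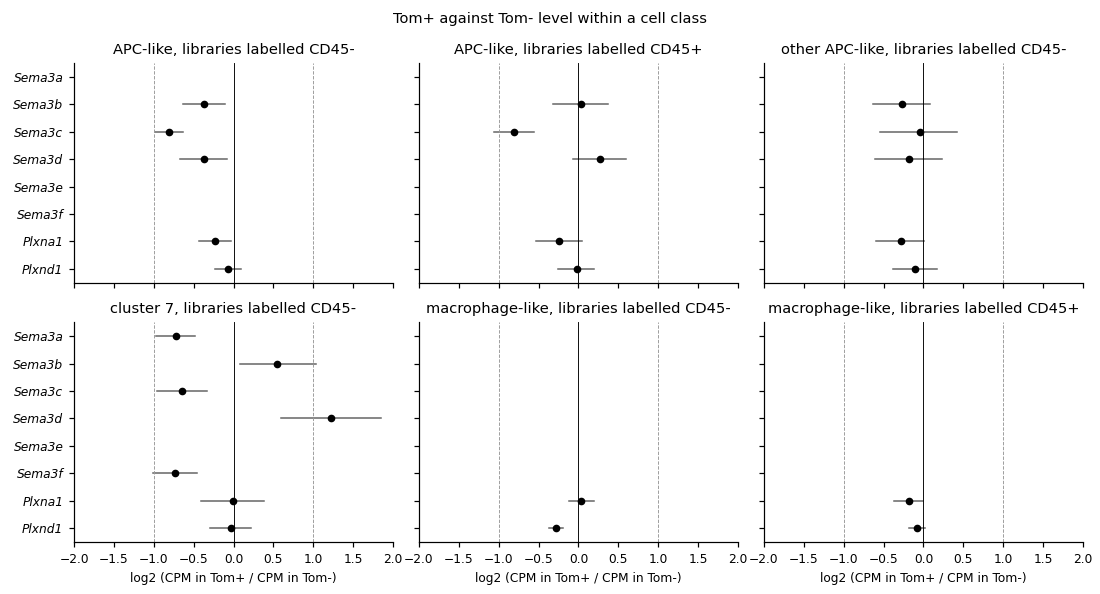
Log2 ratio of Tom+ to Tom- for members at 5 CPM or more in 6 comparisons (APC-like and macrophage-like cells in both pairs, other APC-like cells and cluster 7 in the CD45- pair), with conditional exact 95% intervals and dashed lines at 2-fold. Sema3c in APC-like cells is at -0.81 in both pairs, and Sema3d in cluster 7, at 1.22, is alone past a dashed line.

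Libraries with the same Tom label could be set against each other as the nearest thing to a repeat. Between the Tom+ libraries, 30 of 30 member values of at least 10 CPM had overlapping intervals, against 93.5% of the values of all genes, with a median fold of 1.12 and a largest of 1.45. Between the Tom- libraries 39 of 46 did (84.8%), against 94.8% of the values of all genes, with a median of 1.09 and a largest of 3.09 for Plxnd1 in neutrophil-like cells, at 56.9 and 18.4 CPM on 26 and 10 UMIs.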

How the data were processed

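Per the labels and the study's methods, gonadal fat was digested with Liberase, sorted, run on 10x Chromium 3′ chips and counted by the authors with Cell Ranger 3.0.2 on mm10 plus a tdTomato sequence, and the deposited values are raw UMI counts per gene and barcode, with no normalization. Total counts were 64083756 to 139397501 UMIs a library. The 8 genes and all lists were chosen with earlier results of these data known. The work used Python 3.11.15 with scanpy 1.11.5 and leidenalg 0.10.2. Barcodes were kept that had more than 1000 but fewer than 7000 genes and a mitochondrial share below 8%. Of these, 54 to 427 predicted doublets a library were left out, at a rate of 0.8% per 1000 deposited barcodes of the library. Counts were scaled to 10000 a cell and clustered on 2000 variable genes, 30 components, 15 neighbours and Leiden resolution 1, giving 31 clusters. A cluster was named when at least 3 markers of a list were at 20 CPM or more and at 4 times or more the median over clusters. For subsets the limit was 2 times the median over the clusters of the parent class. A cluster could be left unnamed when an unrelated list scored close to the best, or when its leading genes did not match the list. The 8 genes, the pathway genes, tdTomato and Cdkn2a were left out of the clustering genes. Differences between classes are still descriptions, since the 8 genes were chosen with their levels known. All 8 genes are named. Of a list of 36 pathway genes, Nrp1, Nrp2, Sema3g, Plxna2, Plxna4, Plxnb2 and any at 50 CPM or more in some class could be named, and the 3 genes most like each member by Pearson correlation are given. Intervals and floors (3 counts) cover counting error only, since each group was 1 library. The study's test over cells was not used, because cells are not replicates. Alternatives changed the cell filter, doublets, resolution, variable genes, weighting of cells, depth and shared barcodes. Chosen after seeing the data were keeping the deeper copy of a shared barcode, a fixed subset mix and the larger vascular cluster alone. The interval code was tested on simulated data.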

Additional observations from a re-analysis of the deposited data

How the results depend on the processing

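The class with the highest level was the same for all 8 genes when doublets were kept, with 4000 variable genes, with the mean of cell CPM, at 2000 UMIs a cell and with the deeper copy of shared barcodes. It was the same for 7 of 8 with a looser filter (500 or more genes, mitochondrial share below 20%) and at resolution 2, where Plxna1 became highest in LAM-like cells, and with cluster 14 alone as the vascular class, where Plxnd1 became highest in lymphatic cells, and for 4 of 8 without barcodes found in several libraries, since the interstitial class then had under 50 cells per library (Sema3b then led in other APC-like, Sema3c in mesothelial-like, Sema3e in mast-like and Plxna1 in LAM-like cells). The number of called ratios was 2 of 37 in the main setting. It became 7 with the looser filter, 10 at resolution 2 and 5 with 4000 variable genes. With the mean of cell CPM it was 0, and after thinning to 2000 UMIs it was 8. The causes of these changes were not tested. The share of all genes called under these alternatives is not given here, so the counts are not a result about the members. The ratio of Sema3d in cluster 7 of the CD45- pair changed sign with the looser filter (-0.15), and that of Plxnd1 in B cell-like cells after thinning (0.071). Of the other values under the alternatives, 29 levels and 74 ratios moved beyond their interval and 110 and 251 did not. No pairing by animal was possible, because each group was 1 library and the mice pooled in it are not given. Tom+ against Tom- with the CD45 gates as a block would leave 1 residual degree of freedom and was not run. No library could be left out, since each is a whole group, and depth limits Sema3e and every gene in the interstitial cells of the Tom+ libraries.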
